A study of Mus musculus with 6 samples.

Results

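The ETS genes Fli1 and Ets1, which lie next to each other on chromosome 9, had opposite patterns in the sorted forebrain cells. Fli1 was close to absent in wild-type (WT) libraries and present in every knockout (KO) library, while Ets1 was lower in every KO library than in any WT library. Etv5 was the third of 10 ETS genes with a large difference, and lower in KO. The 10 genes were Fli1, Ets1, Ets2, Erg, Etv1, Etv4, Etv5, Etv6, Elk3 and Gabpa, taken by symbol from the 36291 gene rows of the count table, where all 10 were found. They were chosen with earlier results of this KO against WT comparison known, so their values and calls are given as a description, with no test of the members as a group.

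The RNA came from Swiss mice at E14.5, from FACS-isolated telencephalic cells that carry eGFP after Nkx2-1-iCre acted. Both groups share the Cre driver and the reporter, and they differ in Zeb2 (called Sip1 in the study's title), which is WT in 3 libraries and knocked out in 3. The Nkx2-1 gene marks the medial ganglionic eminence (MGE), where many cortical interneurons are born, so the sort takes in whatever cells the driver reached, and the alleles and the deleted part of Zeb2 are not in the labels used here. Each genotype has 1 library of each of the numbers K77, K79 and K80, whose meaning is not stated.

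ETS proteins are transcription factors that share a DNA-binding domain recognising a GGAA core. Many act at the end of the FGF receptor, Ras and ERK kinase route: ERK phosphorylates members such as Ets1, Ets2, Etv4 and Elk3, and FGF signalling raises transcription of Etv4 and Etv5. Fli1 and Erg are best known from endothelial and blood-forming cells and Ets1 from lymphoid and endothelial cells, whereas Etv1 and Etv5 have known roles in developing neurons and Gabpa is expressed in most cell types. Zeb2, a zinc finger homeodomain protein that mostly represses transcription, binds pairs of CACCT boxes.

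The libraries held 8323531 to 11069437 counts assigned to genes. Zeb2 was at 6468, 5350 and 8094 counts in the WT libraries K77, K79 and K80 and at 2856, 2759 and 3391 in the KO libraries of the same numbers, so every KO library was below every WT library. WT K79 stood apart as the only library with Xist (26109 counts, against 13 to 28 elsewhere) and almost without Y-linked reads (6 counts, against 2651 to 3745). Without it, Fli1, Ets1 and Etv5 were at log2 fold changes of 5.27, -2.08 and -1.49. The MGE lineage was present in both groups: all 12 genes of a list of MGE interneuron genes were tested, their summed level was 5733 to 6535 CPM in WT and 6507 to 7457 in KO, with Gad2, Nkx2-1 and Sox6 among those called higher and Slc32a1 and Dlx5 among those called lower. The calls of Sox6 and Dlx5 were each lost when WT K77, KO K79 or KO K80 was left out, that of Dlx5 also without WT K80 and that of Sox6 also without KO K77.

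CPM are counts scaled to a common library size. Each ± is the SD over the libraries of a genotype (n = 3). Log2 fold changes compare KO with WT and carry the fit's standard error (SE), and a gene is called at an adjusted p under 0.05 by edgeR's quasi-likelihood test. At that threshold 6.27% of the 13835 genes tested were called, 3.64% higher and 2.62% lower in KO. Counts of list genes at an unadjusted p under 0.05 are given below without the share of all genes tested. Nothing is read from those counts. Of the 10 members 9 passed the filter on low counts, of which 1 was called higher (Fli1), 2 lower (Ets1 and Etv5) and 6 were not called. In 4 of the 10 (Fli1, Ets1, Etv4 and Etv5) the genotypes did not overlap, as in 23.2% of all genes tested. Nothing is read from these shares, because the members were chosen on this contrast. The median log2 fold change was -0.02 over the members tested and -0.01 over all genes tested.

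**Figure D1:**
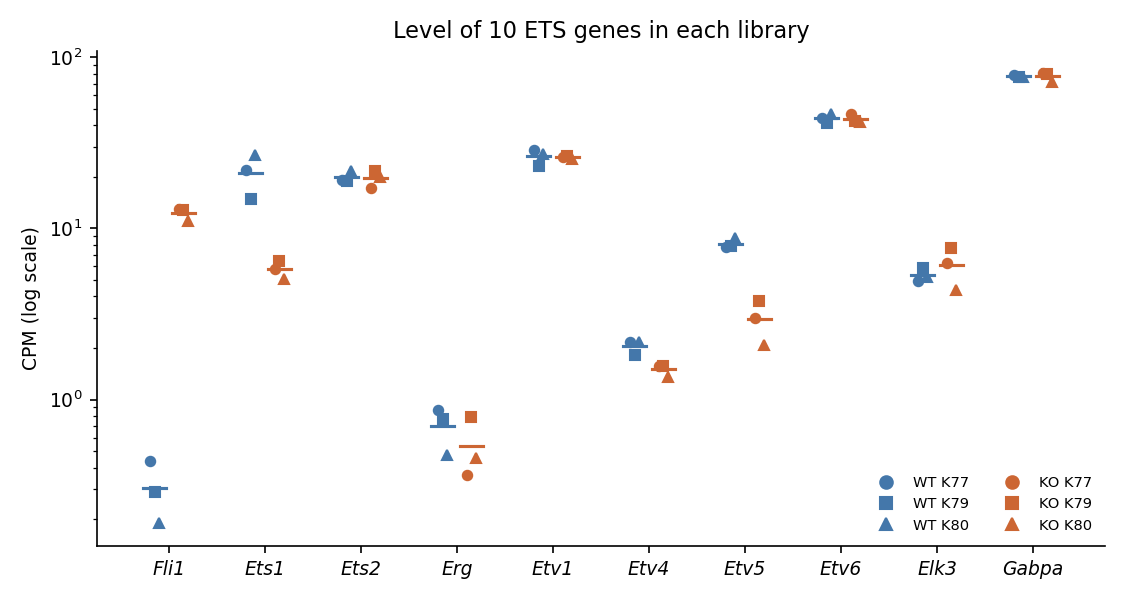
Level of the 10 ETS genes in CPM (log axis), with 1 point for each library, shaped by K number, and a bar at the mean of each genotype. The 3 KO points of Fli1 lie far above its WT points, those of Ets1 and Etv5 lie below theirs, and the ranges of Ets2, Etv1, Etv6, Elk3 and Gabpa overlap, with KO points of Gabpa and Elk3 above and below all WT points.

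Fli1 encodes an activator that is a sister gene of Erg. It had 4, 3 and 2 counts in the WT libraries K77, K79 and K80, and 108, 129 and 122 counts in the KO libraries of the same numbers. All 3 KO libraries were thus high and all 3 WT libraries near the limit of detection, with no overlap. The level was 0.305 ± 0.124 CPM in WT and 12.3 ± 1.05 CPM in KO, with its log2 fold change at 5.30 (SE 0.268), and none of the other genes tested had a higher one. Pooled over libraries and scaled for depth, KO held 40.8 times the WT counts (359 against 9), with an exact 95% interval of 21.2 to 89.9 that covers counting error only. Within K77, K79 and K80 the KO level was 29.8, 44.2 and 58.3 times the WT level, a spread that rests on 2 to 4 WT counts. Fli1 passed the filter through its KO counts alone. In bulk libraries more cells with the transcript and more transcript per cell cannot be told apart.

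Ets1, a founding member of the family, had 201, 155 and 281 counts in the WT libraries K77, K79 and K80 and 48, 65 and 56 in KO. The lowest WT library, K79, was still well above the highest KO library, also K79. The level was 21.2 ± 5.94 CPM in WT and 5.75 ± 0.669 in KO, with its log2 fold change at -1.88 (SE 0.220), and 28 of the genes tested had a lower one. WT exceeded KO 3.80-fold in K77, 2.32-fold in K79 and 5.25-fold in K80. The WT libraries spread more than the KO libraries, with K79 the lowest and K80 the highest of the WT values.

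Set against each other, Ets1 gave most of the pair's counts in every WT library and Fli1 in every KO library. Fli1 made up 1.95%, 1.90% and 0.707% of the summed Fli1 and Ets1 counts in the WT libraries K77, K79 and K80, with 95% Wilson intervals of 0.761 to 4.91, 0.648 to 5.43 and 0.194 to 2.54%. In KO it made up 69.2%, 66.5% and 68.5%, with intervals of 61.6 to 75.9, 59.6 to 72.8 and 61.4 to 74.9%. The share was 1.52 ± 0.704% in WT and 68.1 ± 1.42% in KO, and it does not depend on how libraries are scaled. The sum of both genes differed less, at 21.5 ± 5.90 CPM in WT and 18.0 ± 1.64 in KO, and the WT value of K79 (15.2 CPM) lay below all KO values (16.1 to 19.1 CPM). Shares of counts favour the longer transcript, so they compare libraries and not the molecules of each gene.

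**Figure D2:**
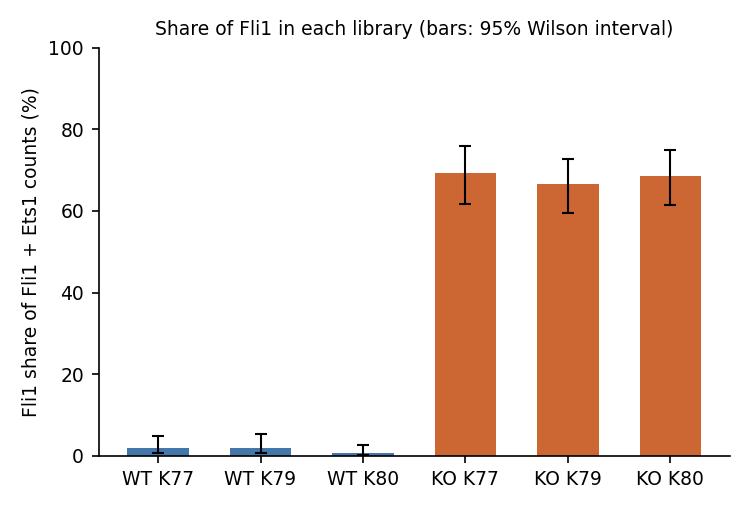
Share of Fli1 in the summed Fli1 and Ets1 counts of each library, in percent, with 95% Wilson intervals as bars. The 3 WT libraries are at 0.707 to 1.95% and the 3 KO libraries at 66.5 to 69.2%.

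Most genes around Fli1 and Ets1 were not called. Among 6 protein-coding genes on each side of the pair, taken from the gene order of a later build (GRCm38.p6) than the files' mm9, 8 were tested, 1 was called higher and 0 lower. Of all genes tested 6.27% were called. By limma voom and DESeq2 as well, 0 were called lower, and 2 of the 8 had an unadjusted p under 0.05 by edgeR. Kirrel3, an immunoglobulin adhesion gene that is the next gene beyond Ets1, had 518, 721 and 643 counts in WT and 882, 1054 and 1080 in KO (K77, K79 and K80). It rose from 62.2 ± 6.44 to 103 ± 4.24 CPM, with its log2 fold change at 0.72 (SE 0.0827, edgeR adjusted p = 0.000766), the opposite direction to Ets1.

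The sialyltransferase gene St3gal4, the gene after Kirrel3, was at 18.8 ± 2.72 CPM in WT and 13.1 ± 2.03 in KO (-0.51, SE 0.153, edgeR adjusted p = 0.0881), and was called lower with the K number as a block (edgeR adjusted p = 0.0154). Further out, Dcps (-0.09), Foxred1 (-0.10), Srpr (-0.11), Tirap (0.42), Nfrkb (0.05) and Arhgap32 (-0.05) were not called, the values being log2 fold changes. On the Fli1 side the nearest genes are potassium channel genes with few reads. Kcnj1 had 0 counts in every library. Kcnj5 had 8, 18 and 9 counts in WT and 8, 13 and 10 in KO and was not tested.

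Erg, the nearest relative of Fli1, stayed close to the detection limit in both genotypes. It had 8, 8 and 5 counts in the WT libraries K77, K79 and K80 and 3, 8 and 5 in KO, 0.705 ± 0.206 and 0.534 ± 0.226 CPM. The genotypes overlapped, and the pooled KO to WT ratio of 0.779 had an exact 95% interval of 0.380 to 1.57. It did not pass the filter. Fli1 and Erg together were at 1.01 ± 0.324 CPM in WT, mostly Erg, and at 12.8 ± 1.11 CPM in KO, mostly Fli1, Erg taking 66.7 to 72.7% of the WT and 2.70 to 5.84% of the KO sum.

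Ets2, the closest relative of Ets1, lies beside Erg on chromosome 16 and overlapped between the genotypes. It had 176, 197 and 228 counts in the WT libraries K77, K79 and K80 and 143, 218 and 220 in KO. The levels were 19.9 ± 1.50 and 19.6 ± 2.19 CPM, with its log2 fold change at -0.02 (SE 0.118). Ets1 and Ets2 together were at 41.1 ± 7.27 CPM in WT and 25.3 ± 2.49 in KO. The Ets2 part of that sum went from 44.8 to 56.0% in WT to 74.9 to 79.7% in KO.

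Etv1, Etv4 and Etv5 form the Pea3 group of ETS activators, which are widely used as readouts of FGF signalling. Etv5 had 71, 82 and 92 counts in the WT libraries K77, K79 and K80 and 25, 38 and 23 in KO. No KO library reached any WT library. The level was 8.12 ± 0.539 CPM in WT and 2.95 ± 0.834 in KO, with its log2 fold change at -1.47 (SE 0.220), with 52 tested genes lower. WT exceeded KO 2.58-fold in K77, 2.10-fold in K79 and 4.19-fold in K80, and 2.79-fold in pooled counts (exact 95% interval 2.17 to 3.61).

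Etv4 had 20, 19 and 23 counts in WT and 13, 16 and 15 in KO. Its groups did not overlap (2.06 ± 0.207 and 1.50 ± 0.122 CPM), but the log2 fold change of -0.46 (SE 0.253) was not called at these counts. Etv1, the most abundant of the 3, had 263, 242 and 287 counts in WT and 217, 269 and 282 in KO, overlapping at 26.4 ± 2.83 and 26.1 ± 0.491 CPM (-0.02, SE 0.101). The group as a sum was at 36.6 ± 3.16 CPM in WT and 30.5 ± 1.44 in KO, and Etv5 made up 20.1 to 23.9% of it in WT and 7.19 to 11.8% in KO.

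Promoter windows of 250 bases before a transcription start were in the RefSeq table (GRCm38.p6) for 7 of the 10 genes, and none for Fli1, Ets1 and Etv4. Of their 11 windows, 3 held CACCT on either strand (46% of all 32851 windows do), 1 of them as the longer CACCTG (17.2% of all windows), and 9 held GGAA (93.4%). The upstream window of Etv5, whose level was lower in KO (chr16:22439571-22439820, minus strand), is shown beside that of Ets2, whose levels overlapped (chr16:95702157-95702406, plus strand). Capitals mark CACCT and GGAA or their reverse complements AGGTG and TTCC. Etv5 has 1 CACCT and no GGAA in this window, and the window of its second start has 0 CACCT and 4 GGAA. Ets2 has 0 CACCT and 1 GGAA. The other windows with CACCT belong to Gabpa and to 1 of the starts of Erg (there as CACCTG), genes whose levels overlapped between genotypes. The matches describe these letters only, since binding was not measured here.
Etv5: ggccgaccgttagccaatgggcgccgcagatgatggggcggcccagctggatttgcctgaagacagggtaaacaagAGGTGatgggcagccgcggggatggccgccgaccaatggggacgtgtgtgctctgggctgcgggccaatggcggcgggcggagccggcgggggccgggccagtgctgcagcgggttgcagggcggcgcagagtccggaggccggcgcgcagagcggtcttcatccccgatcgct
Ets2: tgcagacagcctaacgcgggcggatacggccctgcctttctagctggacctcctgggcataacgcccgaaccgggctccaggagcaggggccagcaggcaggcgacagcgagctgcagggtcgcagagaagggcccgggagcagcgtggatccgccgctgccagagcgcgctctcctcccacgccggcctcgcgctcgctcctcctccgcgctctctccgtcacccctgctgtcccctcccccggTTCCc

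The repressors and the broadly expressed members overlapped between genotypes. Etv6, a repressor known for its part in blood stem cells, had 402, 428 and 490 counts in WT and 387, 429 and 458 in KO (K77, K79 and K80). Its level was 43.8 ± 2.72 and 43.5 ± 2.69 CPM, with its log2 fold change at -0.01 (SE 0.0830). Gabpa, the DNA-binding subunit of the GA-binding protein that acts on many housekeeping and mitochondrial genes, had 716, 796 and 809 counts in WT and 669, 808 and 784 in KO. It was at 77.1 ± 0.875 and 77.1 ± 5.22 CPM, with its log2 fold change at -0.00 (SE 0.0702), with KO libraries on both sides of the narrow WT range. Elk3, a serum response factor partner that represses until phosphorylated by ERK, had 45, 61 and 55 counts in WT and 52, 78 and 48 in KO. Its values of 5.33 ± 0.483 and 6.10 ± 1.68 CPM gave 0.19 (SE 0.224), again with KO libraries on both sides of the WT range.

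Per kilobase of exon, the order of the 10 genes within a genotype changed at Fli1, Ets1 and Etv5. In WT it ran from Gabpa (13.6 CPM per kilobase) through Etv6 (7.32), Ets2 (3.45), Ets1 (2.50), Etv1 (1.98), Etv5 (1.98), Elk3 (1.17), Etv4 (0.664) and Erg (0.203) to Fli1 (0.0874). Ets1 overlapped Etv1, and Etv1 overlapped Etv5, over the 3 WT libraries. In KO the order of these levels was Gabpa (13.6), Etv6 (7.26), Fli1 (3.52), Ets2 (3.38), Etv1 (1.96), Elk3 (1.34), Etv5 (0.718), Ets1 (0.679), Etv4 (0.483) and Erg (0.154). Fli1 overlapped Ets2 there, and Etv5 overlapped Ets1. Fli1 went from the last place to the third, while the sum of all 10 genes was 205 ± 12.6 CPM in WT and 195 ± 11.2 in KO.

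Of 16 other ETS genes, 6 passed the filter and 0 were called, against 6.27% of all genes. None of the 6 had an unadjusted p under 0.05 by edgeR, and DESeq2 and limma voom also called 0. Their log2 fold changes were -0.03 for Elf1, -0.08 for Elf2, -0.09 for Elk1, -0.07 for Elk4, -0.20 for the repressor Erf and -0.01 for Etv3. Elf2 was the highest of them at 155 ± 4.04 CPM in WT and 147 ± 2.54 in KO. Etv2, Fev and Spic had 0 counts in every library, so they were not detectable at this depth.

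**Figure D3:**
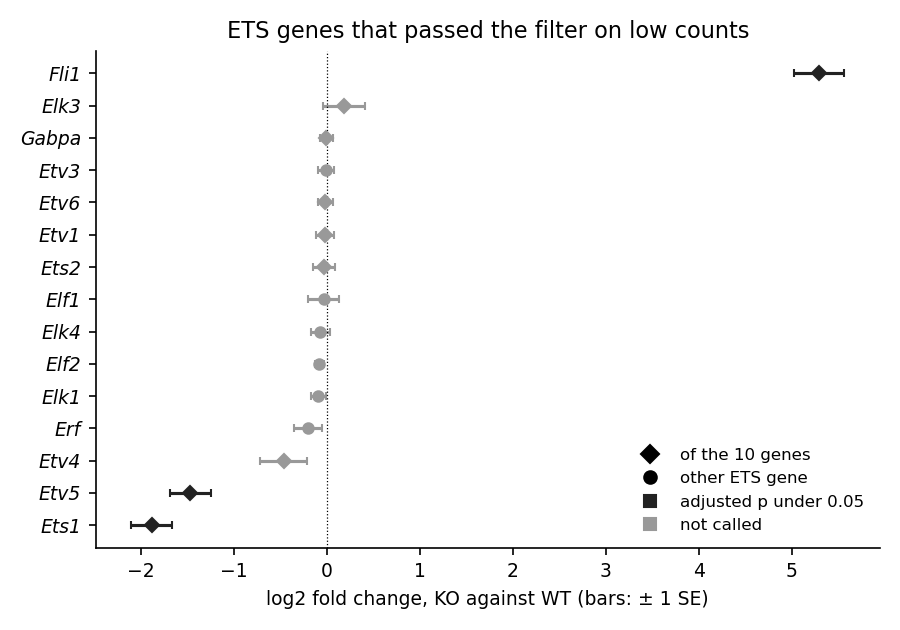
Log2 fold change, KO against WT, of the 15 ETS genes that passed the filter on low counts, with ± 1 SE as bars, diamonds for the 10 chosen genes and circles for other ETS genes. Fli1 (5.30), Ets1 (-1.88) and Etv5 (-1.47) are called (black), and the rest lie between -0.46 and 0.19.

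The route that leads from FGF receptors through Ras to ERK was expressed in both genotypes. All 23 genes of that list were tested, 1 was called higher, 0 lower, and 22 were not called, near the 6.27% called of all genes. The median log2 fold change was 0.05. By edgeR 5 of the 23 had an unadjusted p under 0.05, and DESeq2 and limma voom also called 0 lower. Map2k1, which encodes the kinase MEK1 that phosphorylates ERK, rose from 25.1 ± 1.33 to 36.6 ± 2.69 CPM (0.54, SE 0.0908, edgeR adjusted p = 0.00576). It had 217, 274 and 266 counts in WT and 286, 401 and 394 in KO.

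Genes that ERK signalling induces, among them its own inhibitors, moved in both directions. Of 20 listed, 19 were in the files and 17 tested. Of these, 3 were called higher and 3 lower, against 3.64% and 2.62% of all genes tested. The other 11 were not called, and the median log2 fold change was -0.08. By edgeR 11 of the 17 had an unadjusted p under 0.05, and no shift is read from that for the genes not called. Spry4, a Sprouty inhibitor of receptor tyrosine kinase signalling, had 60, 63 and 61 counts in WT and 15, 26 and 17 in KO and fell by 1.63 on the log2 scale (SE 0.229, edgeR adjusted p = 0.00226). Its relatives went the other way. Spry1 rose from 9.04 ± 1.23 to 22.1 ± 2.49 CPM (1.29, SE 0.141, edgeR adjusted p = 0.000591) and Spry2 from 23.4 ± 1.12 to 34.0 ± 1.23 CPM (0.54, SE 0.0854, edgeR adjusted p = 0.00441). The phosphatase gene Dusp4, whose product inactivates ERK, rose from 229 ± 27.0 to 328 ± 2.11 CPM (0.52, SE 0.0801, edgeR adjusted p = 0.00400).

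Phlda1 fell from 13.5 ± 1.37 to 7.72 ± 1.23 CPM (-0.79, SE 0.158, edgeR adjusted p = 0.0159), and the call did not hold when WT K77 or KO K79 was left out (adjusted p = 0.0686 and 0.0577). Egr1, an immediate early gene, was at 12.7 ± 4.87 CPM in WT and 4.95 ± 1.82 in KO (-1.38, SE 0.332, edgeR adjusted p = 0.0373). That call did not hold when WT K77, WT K80, KO K79 or KO K80 was left out (adjusted p = 0.126, 0.11, 0.156 and 0.172) and with limma voom (0.0653). Fos, not called at -1.79, rested on WT K80, which had 55.4 CPM against 14.0 and 7.29 in WT K77 and K79 and 5.23 to 8.79 in KO. With the K number as a block 5 genes of the list were higher and 4 lower. This added Il17rd (edgeR adjusted p = 0.00117) and Dusp6 (0.0313) above and Fos (0.0215) below, and the same genes were added when WT K79 was left out. DESeq2 also called Il17rd (adjusted p = 0.00393), and edgeR without a filter called Il17rd (0.00275) and Fos (0.00428). In the authors' deposited table the adjusted p is 3.33e-06 for Il17rd, 0.0223 for Dusp6 and 4.67e-23 for Fos. The Pea3 genes, the Sprouty genes and Dusp6 are background examples of FGF targets, and Etv5 and Spry4 were lower here while Spry1 and Spry2 were higher.

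**Figure D4:**
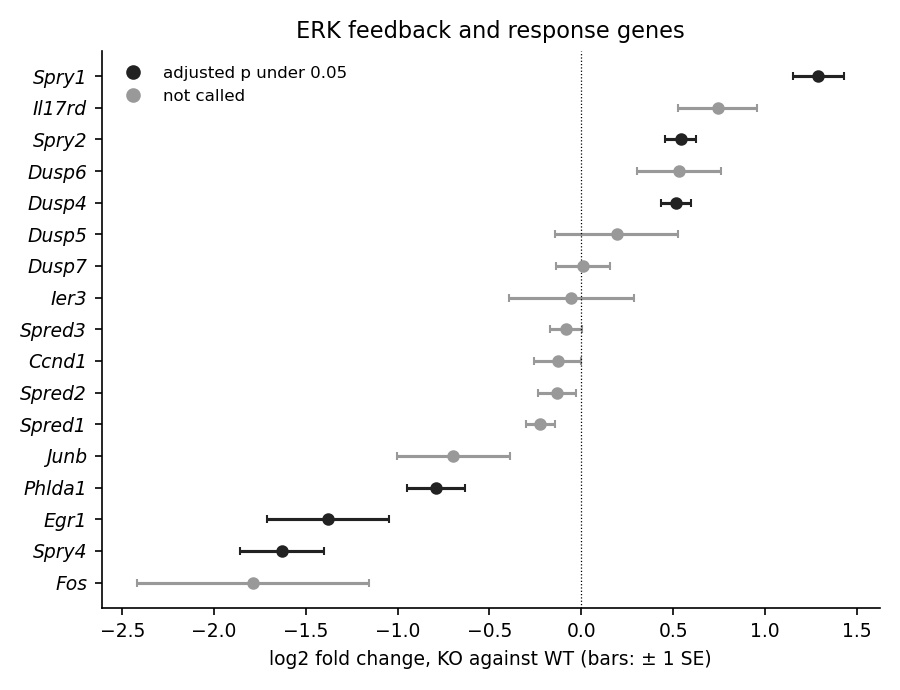
Log2 fold change, KO against WT, of the 17 tested genes that respond to ERK signalling, with ± 1 SE as bars. Spry1, Spry2 and Dusp4 are called higher and Phlda1, Egr1 and Spry4 lower (black), and the grey points are not called.

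Among 23 genes for ETS partners and regulators, 20 were tested, 1 was called higher and 0 lower (also by DESeq2 and limma voom). That is near the 6.27% called of all genes, and the median log2 fold change was -0.03. By edgeR 1 of the 20 had an unadjusted p under 0.05. Trib2, whose product is an adaptor of a ubiquitin ligase, rose from 298 ± 17.9 to 429 ± 25.8 CPM (0.53, SE 0.0683, edgeR adjusted p = 0.00136). Protein levels were not measured. The partner of Gabpa, Gabpb1, was at 90.1 ± 5.43 CPM in WT and 82.0 ± 3.81 in KO and was not called.

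Since Fli1, Ets1 and Erg are known from endothelial and blood cells, markers of those cells were read in the same libraries. Of 24 endothelial markers 13 were tested and 0 called, against 6.27% of all genes tested. With 13 genes at low counts, 0 called is near that share. None had an unadjusted p under 0.05 by edgeR, and 0 were called by DESeq2 or limma voom. Their summed level was 27.2 to 48.9 CPM in WT and 28.7 to 42.9 CPM in KO, overlapping, and Ly6c1 was at 0 in every library. Pecam1 had 21, 33 and 27 counts in WT and 26, 43 and 25 in KO, and Cdh5 had 22, 43 and 20 in WT and 26, 29 and 20 in KO. The 2 with the lowest p, Kdr and Cldn5, had log2 fold changes of -0.34 and -0.46. Endothelial transcripts were read in both groups at overlapping levels, and what such cells contribute to the Fli1 counts was not tested.

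Of 17 erythroid and megakaryocytic markers 5 were tested and 0 called, near the 6.27% of all genes tested. By edgeR none of the 5 had an unadjusted p under 0.05, and by DESeq2 1 had, with 0 called by DESeq2 or limma voom. The sums were 19.7 to 32.6 CPM in WT and 11.97 to 25.5 CPM in KO. Hba-a1, Hba-a2 and Gfi1b were at 0 in every library, and Hbb-y (-1.04, edgeR adjusted p = 0.292) was called lower with the K number as a block (0.0217). In the authors' deposited table Hbb-y has an adjusted p of 0.00604. The sums of this list were lower in KO than in WT within each K number, at 25.5 against 32.6 CPM in K77, 17.2 against 22.9 in K79 and 11.97 against 19.7 in K80. Of 15 microglial and immune markers 4 were tested and 0 called, again near that share. None had an unadjusted p under 0.05 by edgeR and 0 were called by DESeq2 or limma voom. Their sums were 10.6 to 15.2 CPM in WT and 8.88 to 12.7 CPM in KO. Csf1r (1.32 ± 0.556 CPM in WT and 0.643 ± 0.388 in KO) and Cd68 (4.16 ± 0.178 and 3.70 ± 0.311) had the lowest p.

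Of 15 pericyte, meningeal and mesenchymal markers 9 were tested, 0 were called higher (also by DESeq2 and limma voom) and 1 lower. Over all genes tested the shares were 3.64% and 2.62%. The sums were 27.2 to 52.6 CPM in WT and 26.5 to 47.3 in KO. These sums too were lower in KO within each K number, at 47.3 against 52.6 CPM in K77, 31.2 against 44.9 in K79 and 26.5 against 27.2 in K80. Cspg4 alone went from 10.8, 13.0 and 9.21 CPM in WT to 3.73, 2.27 and 2.36 in KO (K77, K79 and K80). In K77 and K80 that fall was larger than the fall of the whole sum, so the other markers together were not lower there. By edgeR 2 of the 9 had an unadjusted p under 0.05. Cspg4, also a gene of oligodendrocyte precursors, fell 3.95-fold to 2.78 ± 0.818 CPM (edgeR adjusted p = 0.000766). Col1a2 (1.33, SE 0.475, edgeR adjusted p = 0.154) was called higher with the K number as a block (0.0221), and in the authors' deposited table (0.00494). Twist1 had 0 counts in WT and 1, 1 and 3 in KO. The part of such cells in the values of Fli1 and Ets1 was not tested beyond these levels.

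**Figure D5:**
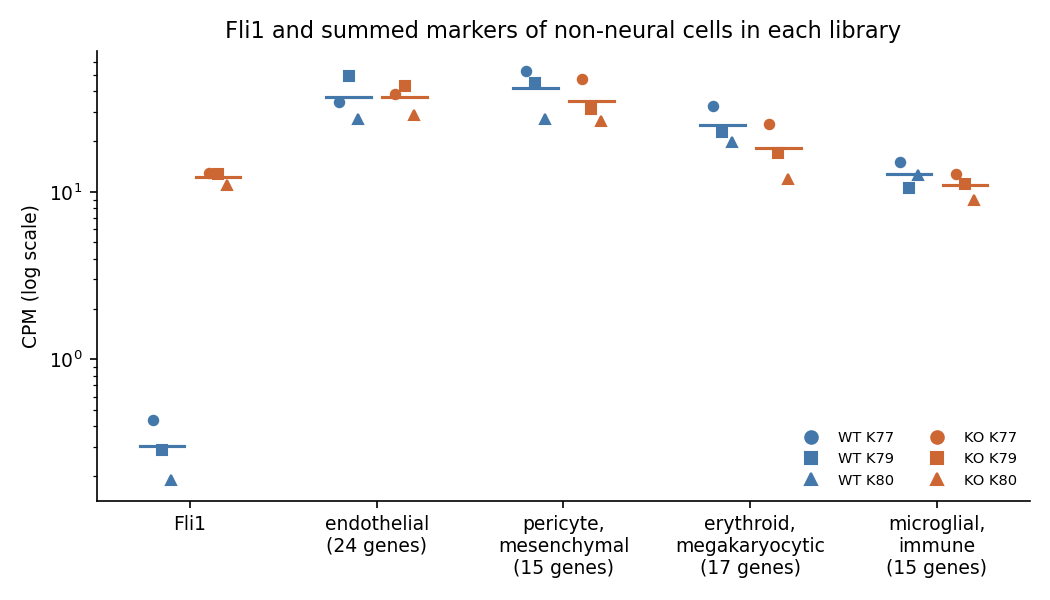
Level of Fli1 and summed level of 4 marker lists in CPM (log axis), with 1 point for each library and a bar at the mean of each genotype. Fli1 separates the genotypes, and the sums of the endothelial, pericyte and mesenchymal, erythroid and megakaryocytic, and microglial and immune markers overlap between them. The pericyte and erythroid sums are lower in KO within each K number. In K77 and K80 the fall of Cspg4 is larger than that of the pericyte sum.

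Over the 6 libraries, among 11032 genes tested at a mean of at least 5 CPM, the log2 CPM of Fli1 was most like that of Chn2 (Pearson r 0.996), Ptn (0.996) and Pcp4 (0.995). Chn2 encodes a chimaerin that acts on Rac, Ptn the growth factor pleiotrophin and Pcp4 a calmodulin-binding peptide. Their log2 fold changes of 0.78, 0.36 and 1.59 were far smaller than that of Fli1, so the likeness is one of shape and not of size. Among the genes most like Ets1 were Cxcr7 (0.996), an atypical chemokine receptor gene, and Tagln2 (0.995), which encodes an actin-binding protein. Cxcr7 (-1.80) also had a log2 fold change near that of Ets1, while Tagln2 had -0.54. In Cxcr7, as in Ets1, WT K79 was the lowest and WT K80 the highest WT library (202 and 346 CPM). The points share libraries, depth and the genotype split, and the correlations describe 6 libraries.

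The authors' deposited table of the same comparison gave an adjusted p under 0.05 for 3 of the 10 genes. In the authors' deposited table the log2 fold changes were 5.33 for Fli1, -1.88 for Ets1 and -1.46 for Etv5, its headers naming the groups A and B only.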

How the data were processed

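Poly-A RNA of 6 libraries was sequenced as single reads, per the labels' protocols. TopHat 1.2.0, HTSeq 0.5.3p3, DESeq 1.2.2 and build mm9 are named in the submitters' processing notes. With the annotation and strand setting not given in the sources used here, reads of overlapping or antisense genes cannot be told apart. The authors deposited raw whole-number counts for 36291 genes, equal in all rows to their table of the whole series. Rows naming no gene (unassigned reads 19.7 to 21.8%, ambiguous reads 1.94 to 1.99% of counts) were left out. The authors' deposited comparison table holds p-values, a ratio of the group means and the log2 of that ratio.

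In R 4.3.3, edgeR 4.0.16 (TMM scaling, filterByExpr with minimum count 10, quasi-likelihood test, Benjamini-Hochberg over all 13835 genes tested) compared 3 KO with 3 WT libraries. edgeR's common biological coefficient of variation came to 9.26%, and replicates differed beyond sampling noise (chi-square per degree of freedom 3.65 to 10.1). The labels do not say whether replicates are separate embryos, so p-values measure only the spread between these samples. That spread may be technical in part, though WT K79 differs from the other WT libraries in its Xist and Y-linked counts. After subtracting group means, libraries of the same K number were positively correlated ( 0.316, 0.267 and 0.236 for K77, K79 and K80, against -0.197 to -0.0526 for other pairs), all above the limit of 0.1, so the number was taken to pair them, from the data and not from the labels. The main fit still had no block for the K number. Calls and p-values given without naming the block are therefore unpaired.

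Members and lists were chosen with earlier results of these data known. Named genes were Zeb2, the 10 members, every other ETS gene and neighbour tested, up to 5 called genes with the lowest p per list (2 where none was called), and the 3 genes most correlated with Fli1 and with Ets1. Some genes that this rule names are not reported here. Other list genes named, and the genes next to members other than Fli1 and Ets1, were chosen after their values were seen. Symbols were matched to RefSeq names, with older symbols where the files use them, and exon lengths came from a GRCm38 annotation. Fits were tested on simulated data. Alternatives were RLE size factors, DESeq2 1.42.0, limma 3.58.1 voom, other filters and thresholds, the K number as a block, each library left out, and haemoglobin, mitochondrial and sex-linked rows dropped. Intervals on counts cover counting error only.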

Additional observations from a re-analysis of the deposited data

How the results depend on the processing

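Fli1, Ets1 and Etv5 kept their direction and call in all 13 alternative fits, with log2 fold changes of 5.04 to 5.61, -2.08 to -1.67 and -1.69 to -1.25. The other 6 members tested were called in 0 of the 13, and Erg, tested only without a filter, was not called (-0.37). Over all genes, 848 were higher and 615 lower with the K number as a replicate block, against 504 and 363. The block changed no call of a member. At adjusted p under 0.01 the counts were 254 and 173, at 0.1 the lower count was 557, and without a filter 546. Leaving out single libraries gave 270 to 645 higher and 175 to 399 lower, the fewest without KO K80, and fewer by over 1.5 times also without WT K77 (310 and 218) and KO K79 (287 and 211).

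In the list of genes that respond to ERK, the replicate block gave 5 higher, and adjusted p under 0.01 gave 1 lower. Leaving out libraries gave 3 to 5 higher (5 without WT K79) and 1 to 4 lower (1 without WT K77 or KO K79). Among the neighbours of Fli1 and Ets1, St3gal4 made 1 gene lower with no filter, with the replicate block and at 0.1, and 0 to 1 when libraries were left out (1 without WT K79, adjusted p = 0.0422). The cause of these shifts was not tested. The Fli1 share stayed at 1.30 to 1.92% in WT and 67.5 to 68.9% in KO when libraries were left out. No called gene named here changed sign in the alternatives. Members not called and close to 0 did, with ranges of -0.10 to 0.06 for Ets2, -0.10 to 0.05 for Etv1, -0.06 to 0.03 for Etv6, -0.03 to 0.39 for Elk3 and -0.03 to 0.05 for Gabpa. Depth limits what can be said of Fli1 in WT, Erg and Etv4, which had at most 23 counts in a WT library.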

Other observations

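The gene beside Etv5 on chromosome 16 was also lower in KO, an observation made after the values of genes adjacent to each member were seen. Dgkg, which encodes a diacylglycerol kinase, had 242, 277 and 443 counts in the WT libraries K77, K79 and K80 and 14, 32 and 35 in KO. It fell to 2.67 ± 0.856 CPM from 31.7 ± 8.99 CPM, with its log2 fold change at -3.53 (SE 0.261, edgeR adjusted p = 8.69e-05), and was called in all 13 alternative fits. On the other side of Etv5, the splicing factor gene Tra2b was at 61.9 ± 1.34 CPM in WT and 59.9 ± 3.44 in KO and was not called (-0.05, SE 0.0715, edgeR adjusted p = 0.802). Among the genes adjacent to Ets2, Etv1, Etv4, Elk3 and Gabpa that were tested, 0 were called by edgeR, DESeq2 or limma voom. By edgeR 6.27% of all genes tested were called. Of these adjacent genes 2, Psmg1 (-0.25) and Cdk17 (-0.14), had an unadjusted p under 0.05 by edgeR.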
